A study of Mus musculus with 4 samples.

Results

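The genes described are 10 members of the cystatin and lysosomal protease system, taken by symbol from the 31055 genes measured in the mouse hippocampus. They are the inhibitors Cstb and Cst3, the cysteine cathepsins Ctsb, Ctsl, Ctss, Ctsz and Ctsc, the aspartic protease Ctsd, the serine carboxypeptidase Ctsa and the legumain Lgmn, and all 10 were found. Dp(10)2Yey mice are hemizygous for a duplication of the part of mouse chromosome 10 that is orthologous to human chromosome 21, on a C57BL/6J background. Of the members, only Cstb lies in the duplicated segment, so these mice carry an extra copy of this inhibitor's gene beside the usual copies of the protease genes. The question was whether the mRNA of the inhibitor rose with gene copy number in each hippocampal cell class, and whether the mRNAs of the proteases moved with it. Each of the 4 libraries held the cells of 1 male mouse of 3 months, and 2 of the mice were Dp(10)2Yey and 2 were their WT littermates. The cells were prepared on consecutive days with 1 mouse of each genotype on each day, and the sources do not say which replicate numbers share a day.

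Cystatins are tight, reversible inhibitors of cysteine proteases of the papain family. Cystatin B, the product of Cstb, has no signal peptide and acts in the cytosol and nucleus, where it binds cathepsins that have left the lysosome, and loss of human CSTB causes progressive myoclonus epilepsy. Cystatin C, the product of Cst3, is secreted and is the main cysteine protease inhibitor of cerebrospinal fluid. The cathepsins are made as inactive precursors and are activated in the acidic lysosome, and microglia, the resident macrophages of the brain, express many of them strongly.

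In the GRCm38 annotation Cstb (ENSMUSG00000005054) occupies chr10:78425669-78427622 on the plus strand. The duplicated segment, taken as Prmt2 through Pdxk, runs from 76207222 to 78464975 on chromosome 10 and holds 62 protein-coding genes, 61 of them in the count tables. The 9 other members lie on chromosomes 2 (Cst3, Ctsz, Ctsa), 3 (Ctss), 7 (Ctsd, Ctsc), 12 (Lgmn), 13 (Ctsl) and 14 (Ctsb). Of the members, 7 overlap another annotated gene, among them Ctsa with Pltp and Neurl2, and Ctsz with Nelfcd, and the sources used here do not say how reads in such overlaps were assigned. No gene overlaps Cstb, Cst3 or Lgmn.

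The values are counts of unique molecular identifiers (UMIs), each marking 1 captured mRNA molecule near its 3′ end, and levels are given as CPM, the UMIs of a gene scaled to 1000000 UMIs of the same class and library, with no division by gene length. The libraries held 3002546 to 9612011 UMIs in 1039 to 2345 barcodes, with the shallowest in WT replicate 1, and any library shared 3 to 5 of its barcodes with another. After removal of red blood cells 6249 cells remained in 15 clusters. Classes were named from markers that include no member, and the members played no part in the clustering. Of the 8 classes tested by name, the glial ones were microglia-like (2575 cells), astrocyte-like (890), ependymal-like (125), oligodendrocyte-like (970) and of its precursors (468). The others were neuron-like (436), immature neuron-like (185) and endothelial-like (271), and all are called by the class name alone from here. The 10 leading genes of the endothelial class included the pericyte markers Rgs5 and Vtn. Those of the immature neurons included Top2a, Ube2c and Pclaf, markers of dividing cells. Both classes can thus hold more than 1 kind of cell, and their mix by library was not tested. Clusters led by Ttr and 2900040C04Rik (124 cells) and by S100a9 and S100a8 (111 cells, with Pf4, Mrc1 and Cd74 raised) were also tested but not named. Neurons were of low quality, with a median of 27.8% mitochondrial UMIs. One microglia cluster (567 cells) had few UMIs, 799 at the median, and Cst3 and Ctss stood among its leading genes with Tyrobp and C1qb.

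The 10 genes together supplied 7.97% of all UMIs in microglia, 3.17% in astrocytes and 0.265% in oligodendrocytes. In microglia and astrocytes most of this was Cst3, at 63662 ± 3863 CPM in microglia and 29495 ± 3039 CPM in astrocytes (mean ± SD over all 4 libraries, both genotypes). Every microglia library exceeded every astrocyte library, and every astrocyte library exceeded every library of the S100a9-led cluster, at 9906 ± 2361 CPM. From neurons, at 3739 ± 1525 CPM, down to oligodendrocytes, at 1046 ± 661 CPM, neighbouring classes overlapped in Cst3.

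The proteases were highest in the myeloid classes. Ctss, a cathepsin that keeps its activity at neutral pH and trims the invariant chain of MHC class II, was at 5619 ± 704 CPM in microglia and 1638 ± 300.1 CPM in the S100a9-led cluster, and at 36.1 to 134 CPM on average in the other classes. Ctsd, the main lysosomal aspartic protease, averaged 4040 CPM in microglia, and Lgmn, the asparaginyl endopeptidase that processes other cathepsins, averaged 2088 CPM. For Ctsd, Ctsl, Ctss, Ctsz and Lgmn every microglia library was above every library of the class ranked next. Ctsb and Ctsc, the latter a dipeptidyl peptidase that activates granule proteases of leukocytes, were higher in the S100a9-led cluster, at 2156 ± 912 and 1084 ± 622 CPM, than in microglia, at 1086 ± 86.6 and 254 ± 6.11 CPM. The ranges overlapped for Ctsb and did not overlap for Ctsc. Ctsa, which also protects β-galactosidase and neuraminidase in the lysosome, averaged 462 CPM in the S100a9-led cluster and 418 CPM in microglia, with overlapping ranges. Ctsl followed its microglial level of 1277 CPM with 491 ± 77.6 CPM in oligodendrocyte precursor cells, overlapping with the S100a9-led cluster. Of the 1041 Ctsl UMIs of the precursor cells, 610 came from a cluster of 77 cells led by Gpr17, Bmp4 and Enpp6, at 1325 ± 423 CPM. The other 391 precursor cells were at 271 ± 25.7 CPM.

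**Figure D1:**
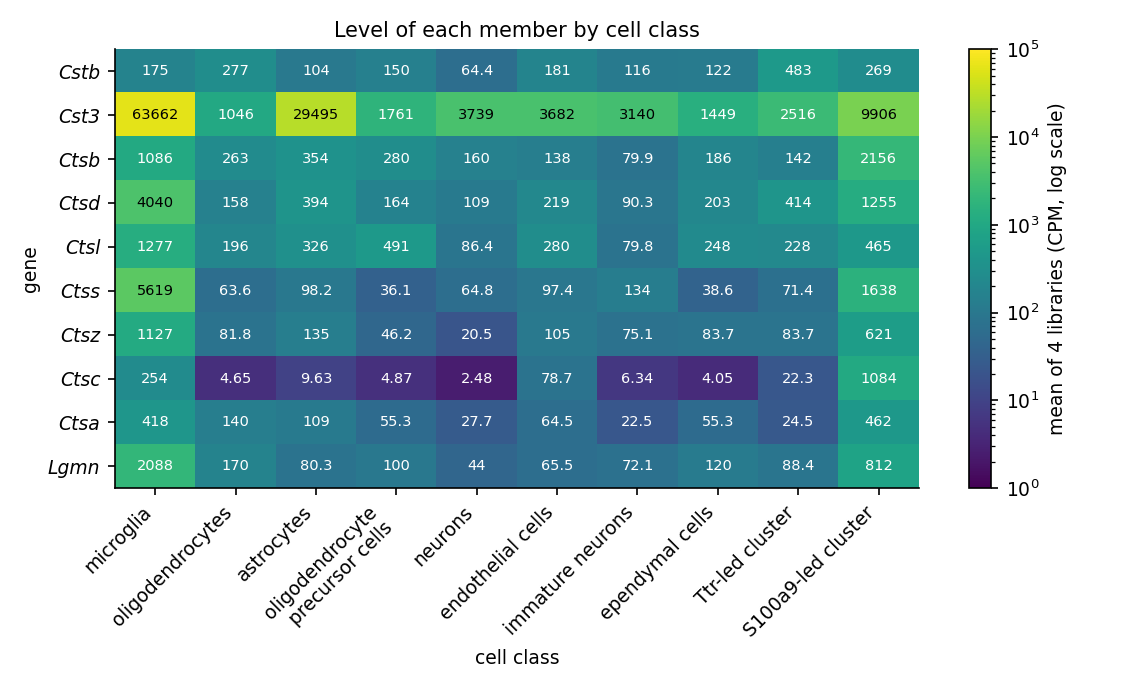
Mean level of each member (rows) in each class or cluster tested (columns), as CPM averaged over all 4 libraries, with colour on a log scale and the value printed in each cell. Cst3 reached 63662 CPM in microglia, the proteases were highest in microglia or the S100a9-led cluster, and Cstb differed least between classes.

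Promoters from RefSeq (GRCm38.p6, 250 bases before to 50 after each start) were matched for 8 of the 10 members and searched on both strands for CACGTG, a palindrome and the core of the E-box that the lysosomal transcription factor TFEB is known to bind. It was found in 4 of the 8, against 8.09% of 27025 genes and 7.15% of 32851 promoters, and Ctsa and Lgmn had 2 promoters each, which gives them more chances. The proteases with the motif were highest in microglia or the S100a9-led cluster, and so were Ctss, Ctsz and Ctsc, in which it was not found. A link between motif and level was not tested. The windows around the motif follow, with its letters in capitals.
Ctsd, chr7:142387908-142387937, minus strand: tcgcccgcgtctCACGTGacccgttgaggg
Ctsa, chr2:164833749-164833778, plus strand: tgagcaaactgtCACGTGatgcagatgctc
Ctsa, chr2:164833766-164833795, plus strand: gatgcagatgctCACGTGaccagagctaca
Lgmn, chr12:102439124-102439153, minus strand: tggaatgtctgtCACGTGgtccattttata
Ctsl, chr13:64370739-64370768, minus strand: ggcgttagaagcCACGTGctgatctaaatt
The motif began 98 bases before the annotated start in Ctsd, which held another at 245 bases before, 12 before and at base 6 after the start in Ctsa, 49 before in Lgmn and 236 before in Ctsl. Cst3, Ctss, Ctsz and Ctsc did not hold these letters in the windows used, and a match describes a sequence and not a bound site. Cstb and Ctsb had no matched promoter and were not searched.

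Cstb was spread more evenly. Its mean was 483 ± 156 CPM in the Ttr-led cluster, 277 ± 64.5 in oligodendrocytes, 269 ± 32.3 in the S100a9-led cluster, 181 ± 76.7 in endothelial cells, 175 ± 38.0 in microglia and 150 ± 38.8 in oligodendrocyte precursor cells. It was 122 ± 41.3 CPM in ependymal cells, 116 ± 27.2 in immature neurons, 104 ± 58.9 in astrocytes and 64.4 ± 37.1 in neurons. No class in this order was separated from the next by all libraries.

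In all cells together Cstb was at 132 and 163 CPM in the WT libraries and at 222 and 220 CPM in the Dp(10)2Yey libraries (388, 1098, 1113 and 1943 UMIs). The genotypes did not overlap, and 13.1% of all genes tested were likewise higher in both Dp(10)2Yey libraries. The fitted change was 1.48-fold (95% interval 1.17 to 1.88), a log2 fold change of 0.57 ± 0.15 (SE), with an unadjusted p of 0.0046 in edgeR's quasi-likelihood test. After Benjamini-Hochberg adjustment over 13803 genes the p was 1, and no gene passed the adjusted threshold of 0.01 (0% called), while 2.83% had an unadjusted p under 0.05. Among the 31 genes of the segment tested in all cells, Cstb ranked 16 by fold change and so stood at their median of 0.57, and by level it ranked 2.

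Microglia, the class with the most cathepsin mRNA, showed the same direction. Cstb was at 132 and 155 CPM in WT and at 212 and 201 CPM in Dp(10)2Yey microglia, and the groups did not overlap (17.5% of all genes tested had both Dp(10)2Yey libraries above both WT). The fold change was 1.40 (1.14 to 1.72), with a log2 value of 0.48 ± 0.14 (SE), an unadjusted p of 0.00285 and an adjusted p of 0.933 in edgeR. In microglia 0% of genes passed the adjusted threshold, and 3.13% had an unadjusted p under 0.05. In WT replicate 2, 1 cell of 38256 UMIs held 80 of the 377 Cstb UMIs, and without it that library was at 124 CPM and the log2 fold change was 0.66 (adjusted p = 0.148, edgeR). This alternative was chosen after the data were seen, and with the top cell of every library left out the value was 0.65.

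In oligodendrocytes Cstb was at 199.5 and 248.8 CPM in WT and 325 and 335 CPM in Dp(10)2Yey libraries, a 1.44-fold difference (1.14 to 1.80). In oligodendrocyte precursor cells it was at 105 and 130 CPM in WT and 180 and 185 CPM in Dp(10)2Yey libraries, a 1.51-fold difference (1.10 to 2.06). Neither class had overlapping groups, and 15% and 16.1% of all genes tested in them were likewise higher in both Dp(10)2Yey libraries. The unadjusted p-values were 0.00441 and 0.0123, and the adjusted p was 1 in both (edgeR).

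Astrocytes gave the largest difference in Cstb in the reported fit, just ahead of neurons (log2 fold changes of 1.19 and 1.14). The order of these classes turned without Dp(10)2Yey replicate 1 (0.85 and 1.38). The WT libraries were at 45.4 and 72.0 CPM and the Dp(10)2Yey libraries at 180.0 and 117 CPM, from 11, 35, 93 and 99 UMIs. The groups were separate, as for 18.9% of the genes tested in astrocytes, and the fold change was 2.28 (1.55 to 3.36), with an unadjusted p of 4.87e-05 and an adjusted p of 0.0321 in edgeR, which misses the threshold of 0.01. The log2 value of 1.19 fell to 0.98 without WT replicate 1 and to 0.85 without Dp(10)2Yey replicate 1, and was 1.67 without WT replicate 2. It was 1.54 without Dp(10)2Yey replicate 2, where the adjusted p was 0.000493 (edgeR), and 1.14 with a replicate block, where it was 0.0097, so both of these fits passed the threshold. Whether the change in astrocytes differs from that in other classes was not tested. A fit without 1 library leaves a lone library in 1 genotype. Here and below, the share of all genes past the threshold in such fits or with the block was not calculated.

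In endothelial cells the WT libraries stood apart from each other, at 71.9 and 183 CPM, and the Dp(10)2Yey libraries were at 244 and 224 CPM. The log2 fold change was 0.76 ± 0.33 (SE), with 0.33 without WT replicate 1 and 1.68 without WT replicate 2. In ependymal cells Cstb was at 99.4 and 97.4 CPM in WT and 106 and 183 CPM in Dp(10)2Yey libraries. These levels rest on 14 and 15 UMIs in WT (59 and 15 cells) and 11 and 70 UMIs in Dp(10)2Yey libraries (17 and 34 cells). The log2 fold change was 0.64, and it was 0.18 without Dp(10)2Yey replicate 2. Both classes had separate groups, against 18.0% and 17.4% of the genes tested in them.

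In immature neurons Cstb was at 95.8 and 106 CPM in WT and 156 and 107 CPM in Dp(10)2Yey libraries, so that 1 Dp(10)2Yey library barely exceeded WT (log2 fold change 0.32, interval -0.41 to 1.06). The value ran from 0.14 without Dp(10)2Yey replicate 1 to 0.57 without Dp(10)2Yey replicate 2, and was -0.19 when libraries were thinned to the smallest. In neurons the libraries overlapped, at 53.5 and 36.3 CPM in WT and 48.8 and 119 CPM in Dp(10)2Yey, from 5, 20, 15 and 44 UMIs. The log2 fold change in neurons was 1.14, with scaling factors from 0.747 to 1.21 between libraries and CPM means without them of 44.9 and 83.9. With 1 library left out it ranged from 0.64 (WT replicate 2) to 1.38 (Dp(10)2Yey replicate 1). The Ttr-led cluster also overlapped, with 566 and 250 CPM in WT and 561 and 555 CPM in Dp(10)2Yey libraries. In the S100a9-led cluster Cstb was at 232 and 252 CPM in WT and 287 and 303 CPM in Dp(10)2Yey libraries, from 8 to 51 UMIs.

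Across the 10 classes the fitted Cstb value was positive in all (negative in immature neurons when thinned), from 0.27 to 1.19 on the log2 scale, with separate groups in 8 and an unadjusted p under 0.05 in 6. None of the 10 passed the adjusted threshold (edgeR). In each of the 8 classes with separate groups, at most 18.9% of all genes tested were likewise higher in both Dp(10)2Yey libraries. An unadjusted p under 0.05 was found for 2.51% to 5.65% of all genes, depending on the class. The closest libraries nearly tied in immature neurons (106 CPM in WT, 107 CPM in Dp(10)2Yey). They were also close in ependymal cells (99.4 CPM in WT, 106 CPM in Dp(10)2Yey). The classes come from the same 4 mice and are not independent of each other.

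**Figure D2:**
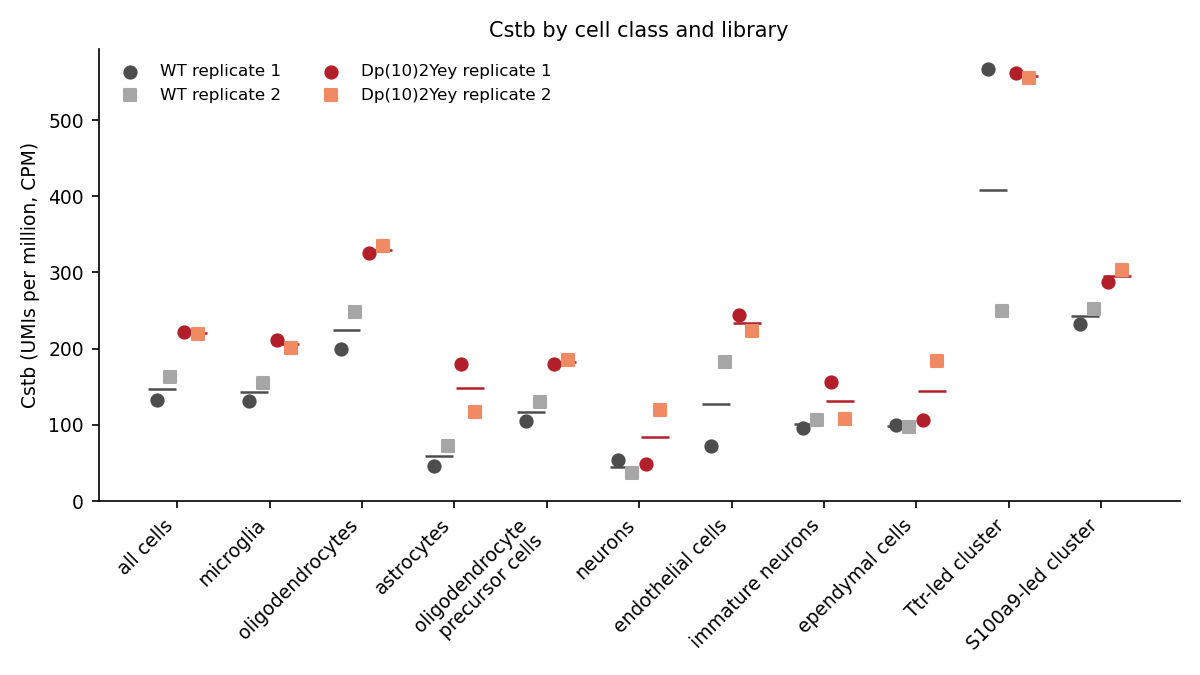
Cstb level (CPM, linear axis from 0) in all cells and in each class tested, with 1 point per library and a short line at the mean of each genotype (n = 2). The Dp(10)2Yey points lie above the WT points in all cells and in 8 of the 10 classes, and overlap them in neurons and the Ttr-led cluster.

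The other inhibitor and the proteases gave small differences in all cells. The fitted log2 fold changes of the 9 genes ran from -0.08 (Ctsz) to 0.12 (Cst3), and 0 of the 9 had an unadjusted p under 0.05. Cst3 was at 30323 and 24263 CPM in WT and 29016 and 30513 CPM in Dp(10)2Yey libraries, and Ctss was at 2020 and 2310 CPM in WT and 2026 and 2601 CPM in Dp(10)2Yey libraries, both overlapping. Ctsa was slightly higher in both Dp(10)2Yey libraries (220 and 217 against 225 and 222 CPM). Ctsb, which encodes cathepsin B, an endopeptidase that can also trim dipeptides, was slightly lower in both (586 and 616 against 585.8 and 584.9 CPM), as were 13.2% of all genes tested.

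In microglia the 9 log2 fold changes ran from -0.13 to 0.07, each with an SE of 0.12 to 0.14. Cst3 was at 65072 and 57989 CPM in WT and 66665 and 64922 CPM in Dp(10)2Yey microglia, a log2 fold change of 0.07 (interval -0.18 to 0.32). Ctss was at 4703 and 6189 CPM in WT and 5427 and 6156 CPM in Dp(10)2Yey microglia, with the genotypes interleaved. Ctsd was at 4354 and 3627 CPM in WT and 4394 and 3786 CPM in Dp(10)2Yey microglia.

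In each genotype the library with less Ctss had more Ctsd, and for both genes the libraries of a genotype differed by more than the genotype means did. Ctsb was at 1037 and 1172 CPM in WT and 1147 and 991 CPM in Dp(10)2Yey microglia. Ctsz, a carboxypeptidase of the cathepsin family, was at 1122 and 1201 against 999 and 1186 CPM. Ctsc lay between 246 and 260.5 CPM, Ctsa between 386 and 453 CPM, and Lgmn between 2032 and 2182.2 CPM over the 4 libraries, with the genotypes overlapping for each.

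Ctsl, a cysteine cathepsin with broad endopeptidase activity, was the only member with separate groups in the downward direction in microglia. It was at 1317 and 1330 CPM in WT and 1198 and 1262 CPM in Dp(10)2Yey microglia, a log2 fold change of -0.13 ± 0.13 (SE), with an unadjusted p of 0.307 (edgeR). Of all genes tested in microglia 12.3% were lower in both Dp(10)2Yey libraries, so 1 of 10 members is close to the background. The 95% intervals of these 9 genes in microglia ended at or below 0.35 on the log2 scale (a 1.5-fold gain, as from 2 to 3 copies, is 0.58).

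**Figure D3:**
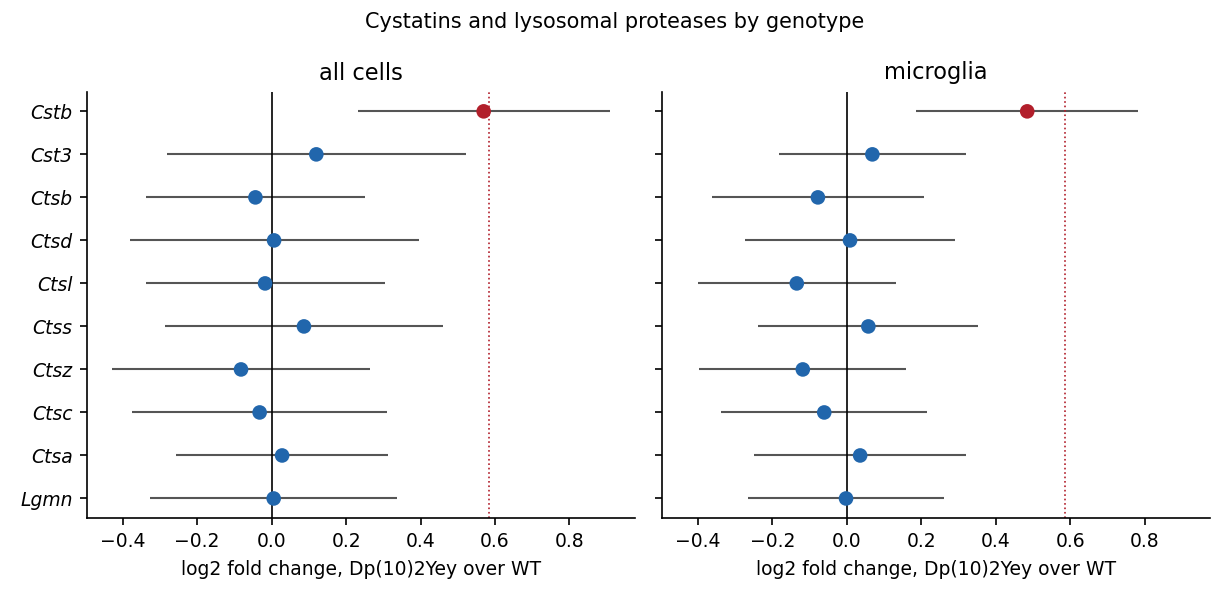
Fitted log2 fold change (Dp(10)2Yey over WT) of each member in all cells and in microglia, with 95% intervals from the edgeR fit (n = 2 libraries per genotype). The dotted line marks a 1.5-fold difference, and Cstb alone (0.57 and 0.48) lies near it, while the 9 other genes lie between -0.13 and 0.12.

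Setting the inhibitor against its targets within each library takes the library's total out of the comparison. In microglia, Cstb gave 15.6 UMIs (95% exact interval 13.3 to 18.3) and 15.3 (13.7 to 16.9) per 1000 UMIs of the 5 cysteine cathepsins in WT replicates 1 and 2. The Dp(10)2Yey libraries gave 23.5 (21.2 to 26.0) and 20.5 (19.0 to 22.0). The ratios of the genotypes did not overlap, with means of 15.5 ± 0.273 and 22.0 ± 2.13 (SD, n = 2), 1.42-fold apart, at the smallest p that a two-sided exact permutation test allows with 2 against 2 libraries (0.33). Without the WT replicate 2 cell with 80 Cstb UMIs the WT ratios were further apart, at 15.6 and 12.3, and the genotypes stayed separate. The intervals cover counting error only, and a ratio of UMIs is no ratio of protein or of activity, since capture can differ between genes.

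The same direction held in all cells (33.7 and 39.1 against 59.8 and 48.0 per 1000) and in oligodendrocyte precursor cells (132 and 153 against 203 and 204). In astrocytes the ratios were 53.9 and 86.4 in WT and 208 and 102 in Dp(10)2Yey, and in endothelial cells 124 and 211 against 494 and 261. The S100a9-led cluster gave 44.0 and 31.7 against 66.7 and 48.25. Oligodendrocytes, neurons, ependymal cells and the Ttr-led cluster had overlapping ratios.

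Immature neurons went the other way, with 435 and 434 Cstb UMIs per 1000 cysteine cathepsin UMIs in WT and 329 and 191 in Dp(10)2Yey libraries. Ctss made up 39 of the 85 and 92 of the 220 cathepsin UMIs of these Dp(10)2Yey libraries, and 21 microglia markers summed to 86.2 and 772 CPM in WT and 3732 and 2798 CPM in Dp(10)2Yey immature neurons. Without cells that held over 1% of their UMIs from those markers, a removal chosen after the data were seen, the ratios were 435 and 657 in WT and 1000 and 487 in Dp(10)2Yey, and overlapped. With the same removal the ratios of endothelial cells overlapped too (135 and 299 against 494 and 286), and those of oligodendrocytes no longer did (464 and 469 against 641 and 535).

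Cstb was also set against Cst3. In microglia there were 2.03 and 2.67 Cstb UMIs per 1000 Cst3 UMIs in WT and 3.18 and 3.10 in Dp(10)2Yey libraries, without overlap. The WT ratio of Cstb to cathepsins was lowest in microglia and stood at 70.2 in astrocytes, 142 in oligodendrocyte precursor cells and 418 in oligodendrocytes, so the same inhibitor mRNA stands beside very different amounts of protease mRNA.

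**Figure D4:**
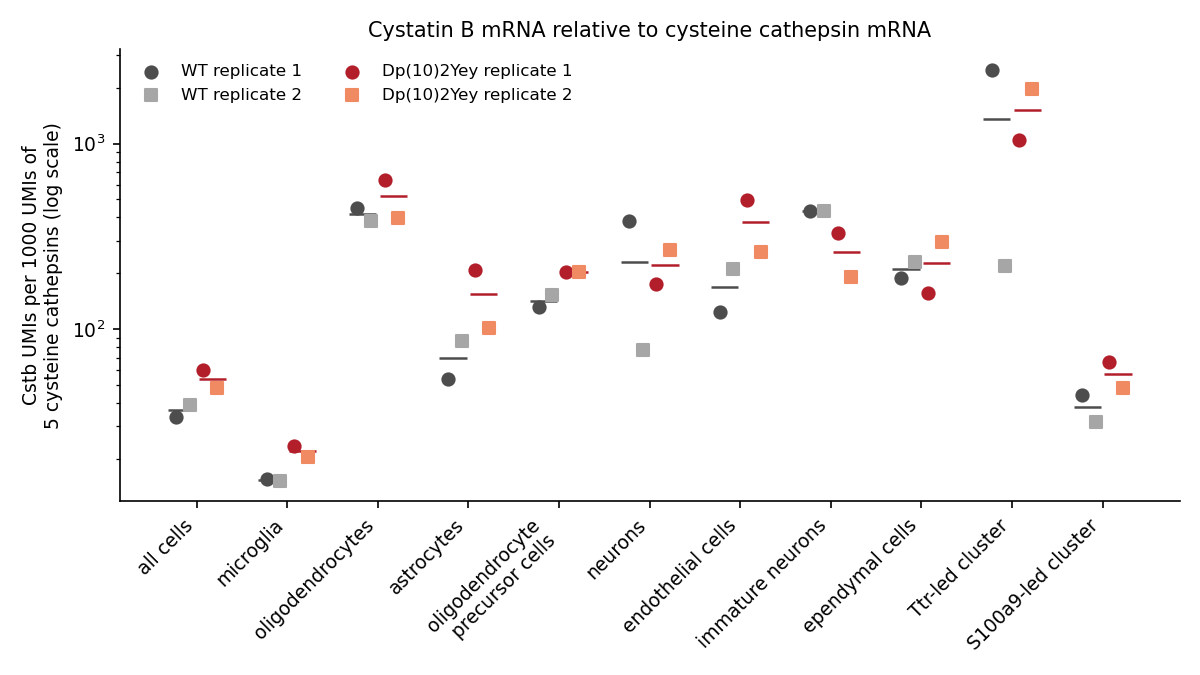
Cstb UMIs per 1000 UMIs of the 5 cysteine cathepsins (Ctsb, Ctsl, Ctss, Ctsz, Ctsc) on a log axis, with 1 point per library and a short line at the mean of each genotype (n = 2). In microglia the WT points (15.6 and 15.3) lie below the Dp(10)2Yey points (23.5 and 20.5), and in immature neurons the order is turned, where it overlaps once cells rich in microglia markers are left out.

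Of 95 tests of members over all cells and the 10 classes, 0 passed an adjusted p of 0.01 in edgeR and 0 passed it in DESeq2, and 17 had an unadjusted p under 0.05, 14 of them higher in Dp(10)2Yey. Among all genes, 0.121% passed the adjusted threshold in astrocytes, 0.0575% in immature neurons and 1.10% in the S100a9-led cluster, and 0% in every other class. The share of all genes with an unadjusted p under 0.05 was 2.51% in oligodendrocytes, 4.31% in astrocytes, 3.43% in oligodendrocyte precursor cells, 3.07% in neurons, 4.40% in endothelial cells, 4.48% in immature neurons, 3.99% in ependymal cells, 3.12% in the Ttr-led cluster and 5.65% in the S100a9-led cluster.

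The members outside the segment that differed most were in immature neurons, where all 7 tested had a positive log2 fold change and 6 had separate groups (Cst3, Ctsb, Ctsd, Ctss, Ctsz and Lgmn), beside 15.3% of all genes tested there. Ctss was at 19.2 and 64.7 CPM in WT and 218 and 235 CPM in Dp(10)2Yey libraries, a log2 fold change of 2.24 ± 0.41 (SE) with an adjusted p of 0.0366 (edgeR). Lgmn was at 19.2 and 32.3 CPM in WT and 112 and 125 CPM in Dp(10)2Yey libraries, with an adjusted p of 0.093. Ctsd was at 9.58 and 60.1 against 156 and 135 CPM, and Cst3 at 977 and 2305 against 5447 and 3831 CPM. Ctss passed the threshold in edgeR when WT replicate 2 (log2 3.55) or either Dp(10)2Yey replicate (2.34 and 2.11) was left out, Cst3 without either Dp(10)2Yey replicate, Lgmn without Dp(10)2Yey replicate 1 and Ctsd without WT replicate 2.

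Markers of microglia moved the same way in these cells. The 21 microglia markers summed to 86.2 and 772 CPM in WT and 3732 and 2798 CPM in Dp(10)2Yey immature neurons, and 20 of 21 were higher in both Dp(10)2Yey libraries, and 6 of 21 were detected at all in WT replicate 1. The UMIs lay in few cells. In Dp(10)2Yey replicate 1, 1 of 34 cells held 38 of the 39 Ctss UMIs, and that cell together with the only other Ctss-bearing cell held 650 of the 668 marker UMIs. In Dp(10)2Yey replicate 2, 2 of 73 cells held 63 of 92 Ctss UMIs, and in WT replicate 2, 2 of 50 cells held all 14.

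The share of immature neurons with a Ctss UMI was 7.14% and 4.00% in WT and 5.88% and 8.22% in Dp(10)2Yey libraries, so the genotypes overlapped by this measure. When 7 of the 185 immature neurons with over 1% of their UMIs from microglia markers were left out (1, 2 and 4 cells from Dp(10)2Yey replicate 1, WT replicate 2 and Dp(10)2Yey replicate 2), Ctss was at 19.2 and 0 CPM in WT and 5.92 and 5.63 CPM in Dp(10)2Yey, below the level at which it was tested. Lgmn was then at 19.2 and 14.0 against 11.8 and 16.9 CPM, and Cst3 at 977 and 843 against 1882 and 947 CPM, both overlapping. The log2 fold change of Cst3 went from 1.48 to 0.62 (unadjusted p = 0.051, edgeR). Ctsb stayed separate, at 76.6 and 28.1 against 76.9 and 78.9 CPM, and its log2 fold change went from 1.29 to 0.78 (unadjusted p = 0.141, edgeR). Cstb kept a log2 fold change of 0.32 without those cells, though its libraries then overlapped.

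The UMIs of a member that would come with the microglia markers of another class were calculated from the ratio of that member to the markers inside microglia. The marker UMIs present in oligodendrocytes would, at the microglial ratio, come with 398 Ctss UMIs, and 419 were counted. In astrocytes the corresponding figures were 224 and 209, in oligodendrocyte precursor cells 99.8 and 68, in endothelial cells 130 and 117, and in immature neurons 201 and 147. For Cstb they were 12.1 of 1511 UMIs in oligodendrocytes, 7.38 of 238 in astrocytes, 3.21 of 324 in oligodendrocyte precursor cells and 6.83 of 103 in immature neurons. Over the 7 named classes other than microglia, the calculated UMIs came to 80.5% (ependymal cells, 25.8 of 32) to 147% of those counted for Ctss, with 85.8% in neurons (94.3 of 110), and to 0.749% (ependymal cells) to 6.63% for Cstb.

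**Figure D5:**
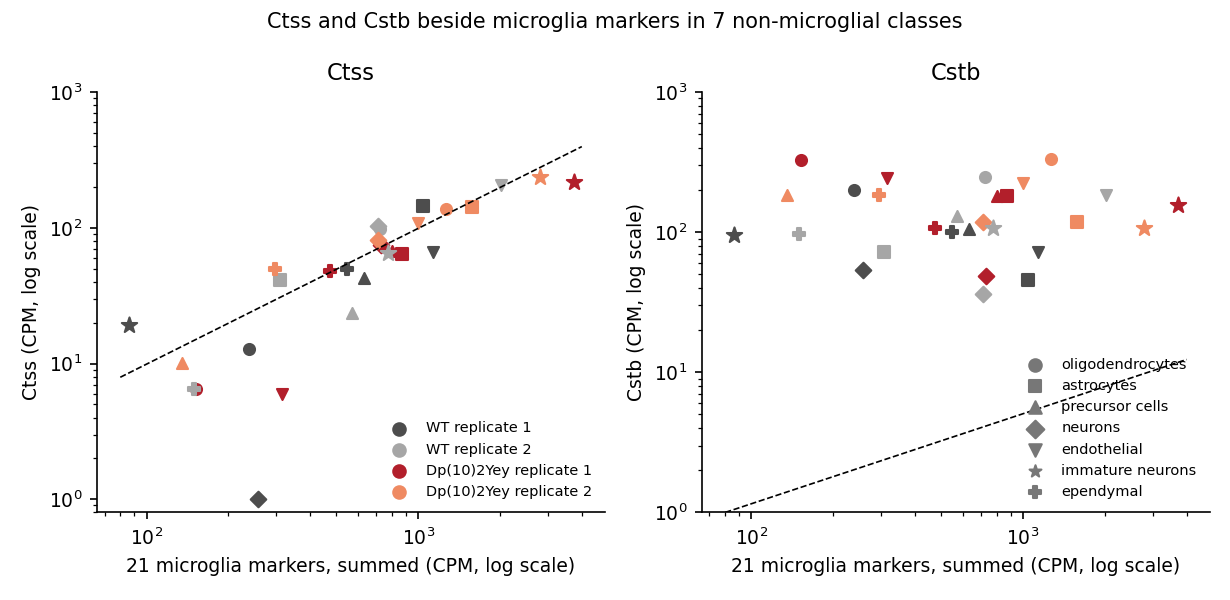
Ctss and Cstb level against the summed level of 21 microglia markers (CPM, log axes) in the 7 named classes other than microglia, with 1 point per class and library, coloured by library and shaped by class. The dashed line is the ratio inside microglia and a Ctss value of 0 is drawn at 1. Ctss scatters around the line, and Cstb (36.3 to 335 CPM) lies far above it. Single libraries have Ctss well off the line, such as endothelial cells of Dp(10)2Yey replicate 1 (5.94 CPM, with markers at 315 CPM).

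Astrocytes had 5 of the 9 tested members separate and higher in Dp(10)2Yey, namely Cstb, Cst3, Ctsd, Ctsl and Lgmn, beside 18.9% of all genes tested there. Cst3 was at 26378 and 28050 CPM in WT and 33434 and 30120 CPM in Dp(10)2Yey astrocytes, a log2 fold change of 0.19 ± 0.22 (SE). Ctsl was at 272 and 286 CPM in WT and 337 and 408 CPM in Dp(10)2Yey astrocytes (log2 fold change 0.38, unadjusted p = 0.0622, edgeR). Lgmn was at 61.9 and 65.9 CPM in WT and 73.5 and 120 CPM in Dp(10)2Yey astrocytes. Microglia markers summed to 1040 and 309 CPM in WT and 875 and 1583 CPM in Dp(10)2Yey astrocytes, with 9 of 21 higher in both Dp(10)2Yey libraries and 18 to 21 of them detected per library. Without 17 astrocytes that held over 1% marker UMIs, the log2 fold change of Lgmn went from 0.58 to 0.05 and that of Ctsd from 0.21 to 0.09, while Ctsl was at 0.36 and Cstb at 1.19 (adjusted p = 0.23, edgeR).

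In endothelial cells Ctsb and Ctsd were lower in both Dp(10)2Yey libraries. Ctsd was at 252 and 267 CPM in WT and 149 and 209 CPM in Dp(10)2Yey libraries, a log2 fold change of -0.52 with an unadjusted p of 0.0488 (edgeR), and Ctsb was at 149 and 168 against 95.1 and 142 CPM. Of all genes tested in endothelial cells 15.8% were lower in both Dp(10)2Yey libraries. Microglia markers were lower too, at 1130 and 2023 CPM in WT and 315 and 995 CPM in Dp(10)2Yey endothelial cells, with 10 of 21 lower in both. Without 8 cells rich in those markers the log2 fold change of Ctsd was -0.37 (unadjusted p = 0.173, edgeR), and that of Cst3 turned from -0.28 to 0.19. Ctss was at 66.8 and 208 CPM in WT and 5.94 and 109 CPM in Dp(10)2Yey endothelial cells, a log2 fold change of -1.08 (adjusted p = 1, edgeR), which passed the threshold without Dp(10)2Yey replicate 2 (-4.54, adjusted p = 3.09e-07) and was 0.03 without WT replicate 2.

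Lgmn in oligodendrocyte precursor cells was lower in Dp(10)2Yey, at 129 and 126 CPM in WT and 64.2 and 82.8 CPM in Dp(10)2Yey libraries. The log2 fold change was -0.78 ± 0.25 (SE), with an unadjusted p of 0.00376 and an adjusted p of 1 (edgeR), and 14.4% of all genes tested there were lower in both Dp(10)2Yey libraries. In the Gpr17-led cluster of 77 cells Lgmn overlapped (164 and 290 against 87.1 and 253 CPM). In the other 391 cells it did not (122 and 71.8 against 58.1 and 38.5 CPM). In each library of the class 2 cells held 31.4% to 42.1% of the Lgmn UMIs. The markers summed to 631 and 569 CPM in WT and 800.0 and 135 CPM in Dp(10)2Yey precursor cells, so they did not separate the genotypes, and without the 8 cells rich in them the Lgmn value was -0.67 (unadjusted p = 0.0214). Ctsa was higher there, at 39.0 and 48.6 CPM in WT and 62.4 and 71.2 CPM in Dp(10)2Yey libraries.

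Oligodendrocytes had only Cstb separate. Ctsl was at 119 and 182 CPM in WT and 148 and 336 CPM in Dp(10)2Yey libraries, a log2 fold change of 0.63 with an unadjusted p of 0.0537 (edgeR), and the high value came from Dp(10)2Yey replicate 2. With Dp(10)2Yey replicate 1 left out the value was 1.08, with an adjusted p of 5.49e-07 in edgeR, past the threshold. Without 18 cells rich in microglia markers it was at 0.69 (unadjusted p = 0.0143, edgeR), still with overlapping libraries. Cst3 in oligodendrocytes was at 467 and 1263 CPM in WT and 571 and 1884 CPM in Dp(10)2Yey, and the microglia markers summed to 238 and 726 CPM in WT and 152 and 1266 CPM in Dp(10)2Yey. Both were higher in the replicate 2 libraries than in the replicate 1 libraries. The Cst3 value passed the threshold without Dp(10)2Yey replicate 1 (log2 1.08, adjusted p = 8.63e-10, edgeR) and without WT replicate 2 (1.41, adjusted p = 0.00959). Ctss in oligodendrocytes, at 12.8 and 97.5 CPM in WT and 6.52 and 137 CPM in Dp(10)2Yey, passed the threshold in opposite directions, at 0.98 without Dp(10)2Yey replicate 1 (adjusted p = 0.00104, edgeR) and at -3.41 without Dp(10)2Yey replicate 2 (adjusted p = 1.02e-13). At the microglial ratio the marker UMIs of oligodendrocytes would come with 64.5% of the Cst3 UMIs of this class.

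In neurons only Cst3 was separate, at 2449 and 2980 CPM in WT and 5912 and 3615 CPM in Dp(10)2Yey libraries (log2 fold change 1.06 ± 0.73, SE), against 10.6% of all genes tested. Without cells rich in microglia markers it was at 1949 and 2308 against 5081 and 3219 CPM and still separate (adjusted p = 0.995, edgeR), and without Dp(10)2Yey replicate 2 the log2 value was 1.59 with an adjusted p of 0.00115, past the threshold. In ependymal cells Cst3 was at 1229 and 1059 CPM in WT and 1923 and 1587 CPM in Dp(10)2Yey, with an unadjusted p of 0.02 (edgeR), and without 1 cell rich in microglia markers from Dp(10)2Yey replicate 1 that library was at 1155 CPM and overlapped with WT. Cst3 in the Ttr-led cluster was at 1869 and 5602 CPM in WT and 1658 and 935 CPM in Dp(10)2Yey libraries, with a log2 fold change of -1.77, an unadjusted p of 0.0149 and an adjusted p of 0.92 (edgeR), where 8.33% of all genes tested were lower in both. The markers there summed to 312 and 4735 CPM in WT and 588 and 118 CPM in Dp(10)2Yey libraries, and their part in the Cst3 difference was not tested. The high value came from WT replicate 2, without which the log2 fold change was -0.55 (adjusted p = 0.994, edgeR). It passed the threshold with WT replicate 1 left out (-2.35, adjusted p = 1.81e-07) or Dp(10)2Yey replicate 1 left out (-2.30, adjusted p = 5.04e-07).

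In the S100a9-led cluster Ctsb was at 2294 and 3327 CPM in WT and 1149 and 1856 CPM in Dp(10)2Yey libraries, a log2 fold change of -0.91 with an unadjusted p of 0.0673 (edgeR), beside 14.2% of all genes lower in both libraries. Cst3 and Ctss were higher in both Dp(10)2Yey libraries of this cluster, at 7551 and 8198 against 12009 and 11866 CPM for Cst3 and at 1365 and 1470 against 1671 and 2046 CPM for Ctss, as were 15.4% of all genes. The cluster holds 16 to 51 cells per library and both S100a8 and macrophage genes lead it, so its make-up and the genotype cannot be told apart in these values.

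The share of cells with at least 1 Cstb UMI separated the genotypes in fewer classes than the summed level did. In endothelial cells the shares overlapped (18.2% and 44.3% in WT, 41.5% and 42.9% in Dp(10)2Yey), as they did in ependymal cells, where they ran from 16.9% in WT replicate 1 to 67.6% in Dp(10)2Yey replicate 2. In microglia the share was 24.1% and 29.4% in WT and 42.5% and 39.98% in Dp(10)2Yey libraries, at median depths of 2880.5, 3764, 3668 and 3767.5 UMIs. With each cell thinned to 1000 UMIs, and 111, 93, 99 and 141 shallower microglia left out, the shares were 11.5% and 9.98% in WT and 17.96% and 18.02% in Dp(10)2Yey. For Ctss in microglia the thinned shares were 97.5% and 99.5% in WT and 98.8% and 98.5% in Dp(10)2Yey, against 0.943% to 4.00% in oligodendrocytes, a class that should lack it.

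In oligodendrocytes the thinned Cstb shares were 17.9% and 21.7% in WT and 26.3% and 24.7% in Dp(10)2Yey, and in astrocytes 3.90% and 9.66% against 16.5% and 12.5%. In oligodendrocyte precursor cells they overlapped (17.0% and 10.0% against 17.5% and 15.9%). In neurons the shares before thinning overlapped as well (6.00% and 12.7% against 7.59% and 22.2%). After thinning they were 0% and 3.08% in WT and 3.55% and 3.75% in Dp(10)2Yey neurons, which did not overlap but rest on so few cells with a UMI that no change is read from them. In immature neurons the thinned shares were 4.35% and 6.38% in WT and 19.4% and 13.3% in Dp(10)2Yey, without overlap. They also rest on few cells with a UMI, and no change is read from them. As Cstb is expressed in many tissues, no class in these libraries can serve as a true blank for it.

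Microglia were divided further at a finer resolution of 0.5. In the largest group, of 1037 cells led by Klf4, Fosb and Egr1, Cstb was at 106 and 103 CPM in WT and 173 and 148 CPM in Dp(10)2Yey libraries. In 509 cells led by Hspa1b and P2ry12 it was at 133 and 102 against 179 and 189 CPM, and in the 567 low-UMI cells at 126 and 96.1 against 325 and 310 CPM. All 3 groups were separate by genotype, and the share of all genes separate in them was not calculated. In the low-UMI cells these values rest on 14 and 13 Cstb UMIs in WT and 43 and 54 in Dp(10)2Yey libraries. In 462 cells led by Tnf, Gpr84 and Lpl, Cstb was at 187 and 323 CPM in WT and 257 and 269 CPM in Dp(10)2Yey libraries, so that the genotypes overlapped there. This group holds the WT replicate 2 cell with 80 Cstb UMIs, and without that cell the library was at 198 CPM and the genotypes did not overlap. The low-UMI cells carried 108550 ± 8016 CPM of Cst3, against 60495 ± 3476 CPM in the main microglia cluster, and less Lgmn (1410 ± 180 against 2139 ± 63.2 CPM) and Ctsc (117 ± 28.9 against 265 ± 8.93 CPM).

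Other genes of the lysosomal system were read from lists chosen with earlier results of these data known. Of 40 lysosomal hydrolases and their activators, 39 were tested in microglia. None passed the adjusted threshold in either direction, but neither did any of the 9208 genes tested there (0%). Both Dp(10)2Yey libraries were above both WT for 6 of the 39 and below for 2, against 17.5% and 12.3% of all genes. Their median log2 fold change was -0.02 against 0.00 for all genes tested. Psap, the precursor of the saposins, and Grn, progranulin, had log2 fold changes of 0.02 and 0.01. Among 33 genes of the lysosomal membrane and proton pump, all tested, again none passed, as for all genes. An unadjusted p under 0.05 (edgeR) was found for 2 of them, 1 of these higher, against 3.13% of all genes. The genotypes were separate for 5 that were higher and 4 that were lower, against the same 17.5% and 12.3%. The median was -0.02, and Laptm5, Lamp1 and Atp6v0b were at -0.02, 0.04 and -0.03.

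The 12 sorting and transcription genes gave a median of 0.09 over the 11 tested, with Lrp1 at 0.15, the mannose 6-phosphate receptor gene M6pr at 0.09 and the transcription factor gene Tfe3 at 0.03. Of 15 other cathepsins 3 were tested in microglia, namely Ctsh (-0.05), Ctsf (0.12) and Ctso (-0.08). Of 13 other cystatins in the tables only Cst7, cystatin F, was tested, at 8.90 and 16.8 CPM in WT and 10.9 and 7.26 CPM in Dp(10)2Yey microglia. Timp2, Serpine2 and Serpinb9, the highest of 14 other protease inhibitors, had log2 fold changes of 0.04, 0.12 and 0.05.

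Among the other genes of the duplicated segment with the highest level in microglia, Itgb2, an integrin β chain, was at 0.49 and Pttg1ip at 0.63 on the log2 scale. Of the 26 segment genes tested in microglia 25 were higher and 23 had separate groups, with a median of 0.59, and Cstb ranked 20. Of all genes tested in microglia 17.5% had both Dp(10)2Yey libraries above both WT.

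The genes most alike to Cstb over the 8 named classes were Zdhhc20 (Pearson r = 0.96), Ebp (0.95), Sp2 (0.94), Ube2h (0.93) and Elovl1 (0.93), by the mean of log2(CPM + 10) over libraries and 11521 genes. Those most alike to the sum of the cysteine cathepsins were Dhx34 (0.99), Hexa (0.98), Gusb (0.98), Man2b1 (0.97) and Rap2c (0.97), of which Hexa, Gusb and Man2b1 encode lysosomal hydrolases. Ctsd followed at rank 6 (0.97) and Lgmn at rank 58 (0.94), while Cst3 had 0.74 and Cstb 0.38. These are descriptions over 8 classes that share libraries and depth.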

How the data were processed

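Hippocampal cells of 2 Dp(10)2Yey and 2 WT mice were analysed. The authors deposited raw UMI counts per gene and barcode from Cell Ranger 3.0.2 against a custom mm10 (GRCm38) reference, without normalization. Barcodes called empty were not used here. The total was 3002546 (WT 1), 6848466 (WT 2), 5112759 (Dp(10)2Yey 1) and 9612011 (Dp(10)2Yey 2) UMIs, and p-values measure the spread between mice. Genes in more than 3 cells and cells with at least 200 genes were kept, as in the study. Barcodes with over 20% globin UMIs (32 of 6281) were removed as red blood cells, a rule chosen after a first clustering had not separated them. Seurat 5.3.0 integrated the libraries by canonical correlation analysis with 1999 variable genes, leaving out the member Ctsc, 50 dimensions and a resolution of 0.2. Names were given to clusters with 3 or more markers of 1 class among the 10 leading genes, and they can differ from the study's. Scrublet in scanpy 1.11.5 called 60 doublets (0.96%), which were kept.

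UMIs were summed per library and class (at least 10 cells in every library) and tested with edgeR 4.0.16 in R 4.3.3 (TMM, filterByExpr, quasi-likelihood test, no block, Benjamini-Hochberg over all genes, threshold 0.01). Fold changes use TMM factors, while levels and overlaps use CPM without them. The fit was tested on simulated data, with the same dispersion for all genes and changes only in genes above a minimum level. With a 1.5-fold change the share of changed genes called was 0% in all cells and 3.5% in microglia. With a 2-fold change it was 51.5% and 76%. The members and the gene lists were chosen with earlier results of these data known. All 10 members were named in every class tested, and from each list the counts and the 3 genes of highest level in microglia, except for 1 hydrolase that is not reported here. Alternatives were DESeq2 1.42.0, RLE factors, no filter, the replicate block, removal of doublets or of cells with over 20% mitochondrial UMIs, thinning, clustering with the members, a resolution of 0.5, each library left out and a threshold of 0.05. Added after the data were seen were microglia without the low-UMI cluster or without the cells with the most Cstb UMIs, a crossed block, and removal of cells with over 1% microglia-marker UMIs outside microglia. Coordinates are from the GRCm38 annotation.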

Additional observations from a re-analysis of the deposited data

Results flagged for a closer look

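The following results were marked because the genotypes did not overlap in at least 1 of the 8 named classes with Dp(10)2Yey lower and in another of them with Dp(10)2Yey higher. The difference between the classes was not tested in any of them, and the log2 fold changes are from edgeR. Ctsb was at -0.39 in endothelial cells, 1.29 in immature neurons and 0.52 in ependymal cells. Ctsd was at -0.52 in endothelial cells, 0.21 in astrocytes and 1.77 in immature neurons. Ctsl was at -0.13 in microglia, 0.38 in astrocytes and 0.39 in ependymal cells. Lgmn was at -0.78 in oligodendrocyte precursor cells, 0.58 in astrocytes and 2.10 in immature neurons. Microglia markers moved with several of these. They were lower in both Dp(10)2Yey libraries for 10 of 21 in endothelial cells and higher for 20 of 21 in immature neurons. Without cells that held over 1% marker UMIs, Ctsd in immature neurons was at 9.58 and 42.1 CPM in WT and 29.6 and 25.4 CPM in Dp(10)2Yey, and the Lgmn value in oligodendrocyte precursor cells was -0.67. The Ctsb value in immature neurons was then 0.78, with the genotypes still separate.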

How the results depend on the processing

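With DESeq2, RLE factors, doublets or cells over 20% mitochondrial UMIs removed, thinning to the smallest library, clustering with the members or a resolution of 0.5, 0 member tests passed an adjusted p of 0.01, as in the reported fit. Without a filter on low counts 3 passed (Cst3, Ctss and Lgmn in immature neurons), and at a threshold of 0.05, 2 passed (Cstb in astrocytes, Ctss in immature neurons). With a replicate block 2 passed, Cstb in astrocytes (log2 1.14, adjusted p = 0.0097) and Ctss in immature neurons, and with the crossed replicate block, chosen after seeing the data, 5. Which numbers share a preparation day is not stated, and same-numbered libraries correlated from -0.24 to 0.25, so the numbers were not used as pairs. Leaving out 1 library gave 2 to 8 passing tests, where a lone library is assumed to vary like the rest: 8 and 6 when Dp(10)2Yey replicate 1 or 2 was dropped, 2 and 3 when WT replicate 1 or 2 was. One of them was Cstb (astrocytes, 1.54, with Dp(10)2Yey replicate 2 dropped). The share of all genes past the threshold was calculated for the reported fit only. The counts of passing tests under other fits are therefore not read as a result about the members. Cstb stayed positive in all cells (0.44 to 0.75), microglia (0.38 to 0.63) and astrocytes (0.85 to 1.67) in these fits, and was -0.19 in immature neurons when thinned. The log2 ratio of Cstb to cysteine cathepsins in microglia ranged from 0.405 to 0.604 with 1 library left out, and was 0.656 without the microglia cell with the most Cstb UMIs and 0.651 without the top Cstb cell of each library. Neurons could not be tested for Cstb when thinned.

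Values near 0 changed sign, and the cause was not tested. Lgmn in microglia was 0.0068 without a filter and 0.0027 thinned. Without the low-UMI cluster Ctsd in microglia was -0.0013. In all cells Ctsd was -0.0013 and Lgmn -0.0042 without high-mitochondrial cells, and Ctsd -0.0071 and Ctsa -0.020 thinned. With 1 library left out the ranges in all cells were -0.024 to 0.295 (Cst3), -0.0075 to 0.068 (Ctsa), -0.072 to 0.0012 (Ctsb), -0.199 to 0.113 (Ctsc), -0.185 to 0.240 (Ctsd), -0.139 to 0.096 (Ctsl), -0.071 to 0.232 (Ctss), -0.255 to 0.073 (Ctsz) and -0.103 to 0.108 (Lgmn). In microglia they were -0.0029 to 0.14985 (Cst3), -0.061 to 0.130 (Ctsa), -0.199 to 0.034 (Ctsb), -0.115 to 0.142 (Ctsd), -0.129 to 0.281 (Ctss) and -0.044 to 0.037 (Lgmn).

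Cstb in immature neurons rests on 10 to 42 UMIs per library. Whether depth limits the calls was not tested, since the thinned fit only lowered the depth.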
